A study of Rattus with 12 samples.

Results

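By design, rat chromosome 1 carries the DNA that separates the 2 strains compared here. The account below covers the named genes in its middle stretch, from 100 to 200 Mb, in the thick ascending limb of the kidney. Members were the rows of the authors' gene table with a start on chromosome 1 in that interval, a single gene name and a mean of at least 1 FPKM over both strains. FPKM counts sequenced fragments per kilobase of transcript, scaled to the fragments mapped, so levels of different genes can be set side by side. Contig names (AABR07) and small-RNA names (RF0) were left out. These steps gave 443 members of 42915 rows in the table, and 428 of them matched a RefSeq gene by name, 426 of those as protein coding. RefSeq places 426 on chromosome 1, F8a1 on X and Ythdc2 on 18; these 2 were kept by their deposited position. The members were chosen by measured values, because the mean of both strains set the threshold, and the log2 ratio of SS over SS.BN1 was then read along position. That ratio is therefore given as a description, with no test.

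RNA came from medullary thick ascending limbs picked by hand under a microscope from digested outer medulla of male rats aged 7 weeks that ate a diet with 0.4% NaCl. SS/JrHsdMcwi, the Dahl salt-sensitive strain (SS, n = 6), was set against SS-Chr 1BN/Mcwi (SS.BN1, n = 6), a consomic strain with the SS background and its chromosome 1 from the Brown Norway (BN) rat. No further treatment was given, and each animal supplied its own library. Libraries held 42.3 to 59.8 M reads, but the expression tables give 1 FPKM per strain and row, so no value below carries an error between animals.

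In a consomic strain a whole chromosome is exchanged while the others stay as they were, so by design genes on chromosome 1 differ in parental origin between the strains and those on other chromosomes do not. The thick ascending limb takes up salt by means of an apical Na-K-2Cl cotransporter, dilutes the tubular fluid and secretes uromodulin into the urine. Chromosome 1 has been studied in Dahl rats for blood pressure and kidney damage, and the middle stretch holds Umod, genes of epithelial sodium channel subunits, the adrenomedullin gene and large arrays of olfactory receptor genes.

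The libraries had the markers of the labelled tubule. All 15 thick ascending limb markers found in the table were at 1 FPKM or more, none was called different, and their summed level was 13513 FPKM in SS.BN1 and 15362 in SS. Markers of the proximal tubule, the segment upstream, moved with strain: 15 of 22 listed reached 1 FPKM, all 15 were higher in SS, 10 were called, and their sum was 322 FPKM in SS.BN1 and 736 in SS. The proximal markers Slc5a2, Slc22a8 and Slc5a12 stayed near 0, at 0.204 FPKM or less in each strain. Of 12 endothelial markers of at least 1 FPKM, 9 were lower in SS and 3 higher, with 3 called, all lower in SS. They summed to 238 FPKM in SS.BN1 and 184 in SS. Of 9 collecting duct principal cell markers, 6 were lower in SS and 3 higher, with 2 called higher and 1 called lower. Among all tested rows with 1 name and a mean of at least 1 FPKM, 3.91% were called. Fewer cells of a type and less RNA per cell cannot be told apart in such bulk samples. Mean read totals were 52.8 ± 3.69 M in SS and 52.0 ± 5.68 M in SS.BN1 (SD, n = 6 each; exact permutation test, two-sided, p = 0.784).

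Most members had nearly the same level in both strains. The median log2 ratio was -0.01, the quartiles were -0.13 and 0.12, and 333 members (75.2%) lay within 1.2-fold. By sign alone, 211 members were higher in SS and 232 were lower. The authors tested 421 members, and 12 had a q under 0.05 in the authors' deposited table, which is 2.85% against 3.42% of all 13253 tested rows and 3.91% of the tested rows with 1 name and the same minimum level. All 12 were higher in SS, as were most calls in the whole table, where calls higher in SS made up 3.32% of tested rows. An unadjusted p under 0.05 went to 33 members (28 higher in SS, 5 lower), 7.84% of those tested, beside 7.55% of all tested rows in the authors' deposited table. These shares are close to the background, so neither is a result about the interval. The 22 members that the authors did not test had means of 1.03 to 2.76 FPKM and log2 ratios from -0.48 to 1.10.

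By size, 15 members (3.39%) were at least 2-fold higher in SS and 2 (0.451%) at least 2-fold lower. Among all rows with 1 name and a mean of at least 1 FPKM the shares were 4.12% and 0.28%. Ratios of the members ran from -1.11 to 4.17 on the log2 scale. Called members differed by 1.61-fold to 18.0-fold, with a median of 2.63-fold.

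**Figure D1:**
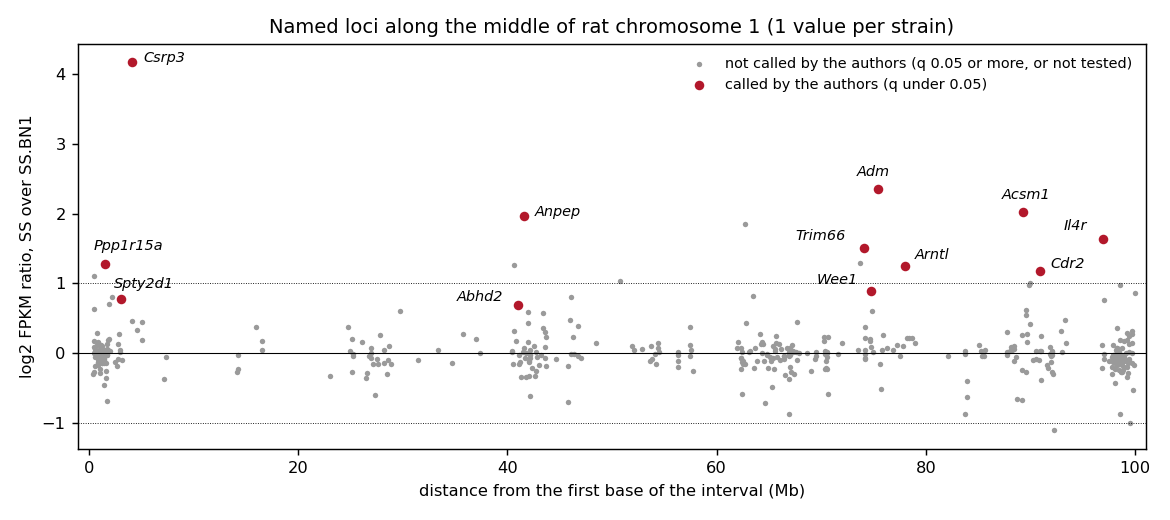
Each point is 1 of the 443 members, placed by its distance from the first base of the interval in Mb, with the log2 ratio of FPKM in SS over SS.BN1 on the vertical axis and dotted lines at 2-fold. The 12 members called in the authors' deposited table are red; all lie above 0, and Csrp3 stands highest at 4.17.

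The called members fell to stress and growth arrest, the circadian clock, the brush border and lipid metabolism, cytokine reception, and a mixed rest. In the list of stress and growth arrest genes, 28 of 33 were members, 17 were higher in SS and 11 lower, 4 were called, and their log2 ratios had a median of 0.15. The 4 calls are 14.3% of the 28 tested, beside 3.91% of tested rows with 1 name, in a list drawn up with earlier results of these data known. Csrp3, the muscle LIM protein of striated muscle, lies at 104147206 to 104166367 on chromosome 1. Its level was 2.41 FPKM in SS.BN1 and 43.3 in SS (log2 ratio 4.17, q = 0.00266 in the authors' deposited table). No other member had so large a ratio, and its level in SS.BN1 was low.

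Adm encodes adrenomedullin, a vasodilator peptide made by endothelium and many other cells under stress. At 175445088 to 175447259, it stood at 4.06 FPKM in SS.BN1 and 20.8 in SS (log2 ratio 2.35, q = 0.00266 in the authors' deposited table). Ppp1r15a (GADD34) is the phosphatase subunit that restores protein synthesis after the integrated stress response. It was the most abundant called member, at 50.7 FPKM in SS.BN1 and 122 in SS (101511901 to 101514974; log2 ratio 1.27, q = 0.00266 in the authors' deposited table). Wee1, the kinase that holds back entry into mitosis, had 19.1 FPKM in SS.BN1 and 35.5 in SS (174767960 to 174786361; log2 ratio 0.89, q = 0.0124 in the authors' deposited table).

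The other 24 members of the stress list were not called. Of these, Isg20 (higher in SS) and Prkcb (lower in SS) differed by more than Wee1, the smallest called difference of the list. Prkcb was at 1.75 FPKM in SS.BN1 and 0.810 in SS (log2 ratio -1.11, q = 0.530 in the authors' deposited table). Isg20, an interferon-induced exonuclease, was at 1.51 FPKM in SS.BN1 and 3.65 in SS (log2 ratio 1.27, q = 0.421 in the authors' deposited table). Bag3, a co-chaperone that works with heat shock proteins, was at 9.11 FPKM in SS.BN1 and 16.5 in SS, with q = 0.171 in the authors' deposited table. Klf13, a zinc-finger transcription factor, was at 14.1 and 18.2 FPKM, in the same order (q = 0.708 in the authors' deposited table). Irf3, Bax, Hikeshi and Mapk3 lay within 1.2-fold: Irf3, a transcription factor of antiviral defence, had 76.9 FPKM in SS.BN1 and 75 in SS. Ldha, the lactate dehydrogenase subunit, had 142 and 172 FPKM.

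Arntl (BMAL1), the partner of CLOCK in the core oscillator, stood at 2.2 FPKM in SS.BN1 and 5.23 in SS (178039009 to 178137575; log2 ratio 1.25, q = 0.0108 in the authors' deposited table). Dbp, a transcription factor that the oscillator drives, was at 92.2 FPKM in SS.BN1 and 71.8 in SS (log2 ratio -0.36, q = 1.00 in the authors' deposited table). The pair thus differed in sign, and Dbp was the more abundant by far.

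A pair of called members belonged to genes known from the proximal tubule. Anpep, the brush-border aminopeptidase N, had 6.48 FPKM in SS.BN1 and 25.3 in SS (141561334 to 141604273; log2 ratio 1.97, q = 0.00266 in the authors' deposited table). Acsm1, a mitochondrial enzyme that activates medium-chain fatty acids, had 1.59 and 6.52 FPKM (189289957 to 189395276; log2 ratio 2.03, q = 0.00266 in the authors' deposited table). Its neighbour Acsm3, of the same family, had 3.05 FPKM in SS.BN1 and 4.69 in SS (q = 1.00 in the authors' deposited table). Acsm genes are close copies of each other, so the division of reads among them is uncertain.

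Among proximal tubule genes of the interval, 13 of 23 listed were members, 10 were higher in SS, and the median of their log2 ratios was 0.41; proximal tubule markers of all chromosomes, Anpep among them, had a median of 1.27. The called members were 2 of 13 tested (15.4%, beside 3.91%). The part of that marker difference in the values of Anpep and Acsm1 was not tested. Without proximal tubule genes, 10 called members were left. Several listed genes went the other way or hardly differed. Folr1, the folate receptor, was at 262 FPKM in SS.BN1 and 203 in SS (q = 0.857 in the authors' deposited table). Aldh1a3, a retinaldehyde dehydrogenase, was at 3.04 and 2.0 FPKM, while Napsa, an aspartic protease, was at 4.41 and 4.49. Others went with the list without a call: Crym, a thyroid hormone-binding protein, was at 32.7 and 43.6 FPKM, and Fah, the last enzyme of tyrosine breakdown, at 11.4 and 15. Nox4, Anks4b and Qprt had larger log2 ratios than these, 1.03, 1.01 and 0.98, from levels under 2 FPKM in each strain, and were not called.

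Il4r, the alpha chain of the interleukin 4 receptor, had 4.56 FPKM in SS.BN1 and 14.2 in SS (196942364 to 196967220; log2 ratio 1.64, q = 0.00266 in the authors' deposited table). It was the called member among 22 immune and blood cell genes (1 of 18 tested, 5.56%, beside 3.91%), of which 10 were higher and 12 lower in SS (median log2 ratio -0.10). Of the immune cell markers of all chromosomes, 9 of 12 were lower in SS (median log2 ratio -0.30, 1 called, higher in SS). Itgax (CD11c), an integrin of dendritic cells and macrophages, was at 4.18 FPKM in SS.BN1 and 2.09 in SS (q = 0.113 in the authors' deposited table). Spn (CD43), a leukocyte sialoglycoprotein, was at 2.49 and 1.36 FPKM, and Folr2, a folate receptor of macrophages, at 2.45 and 1.34. Hbb, a beta globin, was at 45.5 and 38.2 FPKM.

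The last 4 called members encode nuclear proteins, a hydrolase and an onconeural antigen. Trim66, a tripartite-motif protein that binds chromatin, had 1.35 FPKM in SS.BN1 and 3.84 in SS (174059801 to 174119815; log2 ratio 1.51, q = 0.00266 in the authors' deposited table). Cdr2, an antigen of paraneoplastic cerebellar degeneration, had 5.08 and 11.4 FPKM (190889701 to 190914610; log2 ratio 1.17, q = 0.00266 in the authors' deposited table). Spty2d1, a histone chaperone, had 8.06 and 13.8 FPKM (103062709 to 103128743; log2 ratio 0.78, q = 0.0394 in the authors' deposited table). Abhd2, a serine hydrolase, had the smallest called difference, 12.2 FPKM in SS.BN1 and 19.7 in SS (140998240 to 141092174; log2 ratio 0.69, q = 0.0443 in the authors' deposited table). The last 2 lay closest to the threshold of 0.05.

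**Figure D2:**
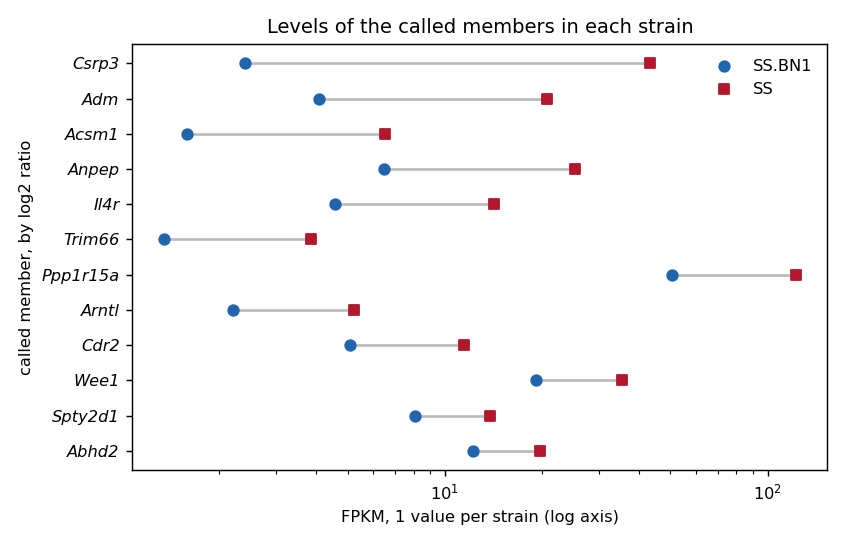
Each line joins the level of a called member in SS.BN1 (blue circle) and in SS (red square), 1 FPKM value per strain, on a log axis. All 12 members stand higher in SS, from 1.61-fold for Abhd2 to 18.0-fold for Csrp3.

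Genes of tubular transport and secretion held no call. An unadjusted p under 0.05 in the authors' deposited table went to 3 of the 17 tested on the list (Ush1c, Gprc5b and Aqp11), beside 7.55% of all tested rows. Of 19 members on the list of thick ascending limb and collecting duct transport, 11 were higher and 8 lower in SS, with a median log2 ratio of 0.10. Umod, which encodes uromodulin, was the most abundant member, at 8492 FPKM in SS.BN1 and 10174 in SS (log2 ratio 0.26, q = 1.00 in the authors' deposited table). Umod alone took 35.9% of the members' summed FPKM in SS.BN1 and 39.6% in SS. The sum over members was 23632 FPKM in SS.BN1 and 25684 in SS, and 15139 and 15510 without Umod, so most of the difference in the sum was Umod.

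The row of Umod shares its deposited interval, 189186026 to 189272172, with Pdilt, Acsm5 and a row that has no name. That unnamed row stood at 354 FPKM in SS.BN1 and 494 in SS. Pdilt, a protein disulphide isomerase of the testis, was at 6.78 and 4.26 FPKM. The rule that divided reads among rows of a shared interval is not stated. In all, 150 members shared their interval with another row, 5 of them called.

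The epithelial sodium channel subunits of the interval differed in sign. Scnn1g, the gamma subunit, was at 14 FPKM in SS.BN1 and 12.1 in SS, and Scnn1b, the beta subunit, at 6.65 and 7.08 (both q = 1.00 in the authors' deposited table). Prss8 (prostasin), a protease that activates the channel, was at 57.5 and 63.2 FPKM. Rhcg, an ammonia channel of the collecting duct, was at 50.9 FPKM in SS.BN1 and 40.2 in SS. It is itself 1 of 6 intercalated cell markers of at least 1 FPKM, all 6 of them lower in SS and none called (median log2 ratio -0.28). Aqp11, an intracellular aquaporin known from the proximal tubule, had the largest ratio of the list from levels near the minimum, 0.494 and 1.79 FPKM (q = 0.318 in the authors' deposited table). Ush1c (harmonin), a scaffold of brush border microvilli, came next at 4.40 and 7.72 FPKM (q = 0.0748 in the authors' deposited table). Gprc5b, an orphan receptor, was at 13.8 and 8.74 FPKM (q = 0.296 in the authors' deposited table).

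Housekeeping lists held no call. Among 32 mitochondrial and energy metabolism members, 17 were higher and 15 lower in SS, none had an unadjusted p under 0.05, and the median log2 ratio was 0.01. Idh2, the mitochondrial isocitrate dehydrogenase, stood at 880 FPKM in SS.BN1 and 878 in SS. Aldoa, a glycolytic aldolase, stood at 931 and 978 FPKM, and Uqcrc2, a core subunit of respiratory complex III, at 465 and 476. Ndufab1, the mitochondrial acyl carrier protein, was at 280 and 286 FPKM. Thrsp, a lipogenic protein, lay farthest from 0 on the list, at 10.2 and 6.78 FPKM (q = 0.792 in the authors' deposited table).

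Ribosome and translation genes gave the narrowest list with 19 members, from -0.23 to 0.31 on the log2 scale, with a median of 0.03 and no unadjusted p under 0.05. Rpl18, a protein of the large subunit of the cytosolic ribosome, was at 389 FPKM in SS.BN1 and 405 in SS. Rps15a, of the small subunit, was at 389 and 392 FPKM. Eif4g2, a translation factor, was at 228 and 272 FPKM, and Arl6ip1, which shapes the endoplasmic reticulum, at 70.3 and 87.1.

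Vessel wall and matrix genes had 10 of 14 members higher in SS, none called, and a median log2 ratio of 0.11. Prss23, a secreted protease, was at 223 FPKM in SS.BN1 and 239 in SS, and Serpinh1 (HSP47), the collagen chaperone, at 85.4 and 95.7. Fzd4, a Wnt and norrin receptor, was at 99.3 and 91.9 FPKM. Cemip, a protein of hyaluronan breakdown, had the largest ratio of the list, 3.07 and 5.36 FPKM (q = 0.0982 in the authors' deposited table).

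Of the genes around the Prader-Willi and Angelman region, 6 were members and none was called. Ube3a, the ubiquitin ligase lost in Angelman syndrome, was at 13.8 FPKM in SS.BN1 and 14.2 in SS. Cyfip1 was at 39.2 and 38.6 FPKM and Herc2, another ubiquitin ligase, at 17.3 and 14.7. A row that joins Snrpn and Snurf, and so is no member, was at 18.7 and 18.5 FPKM. Its deposited start, 195074330, lies far from that of Ube3a, 116586965.

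Blood pressure candidates made up 21 members, 9 higher and 12 lower in SS, with a median log2 ratio of -0.07. Adm and Arntl were the called members of the list (2 of 21 tested, 9.52%, beside 3.91%). Furin, the proprotein convertase, was at 39.2 FPKM in SS.BN1 and 37.3 in SS, Ucp2, a mitochondrial carrier, at 35.4 and 30.1, and Sh2b1, an adaptor of insulin and leptin signalling, at 34 and 31.2. Nox4, an NADPH oxidase, had 0.926 and 1.90 FPKM (q = 0.145 in the authors' deposited table). Plekha7, a junction protein, had 21.4 and 20.7 FPKM, and Cyp2r1, the vitamin D 25-hydroxylase, 21.2 and 16.1. Cyp2r1 shares its interval with Pde3b and 8 rows without a name, and the part of that sharing in its level was not tested.

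**Figure D3:**
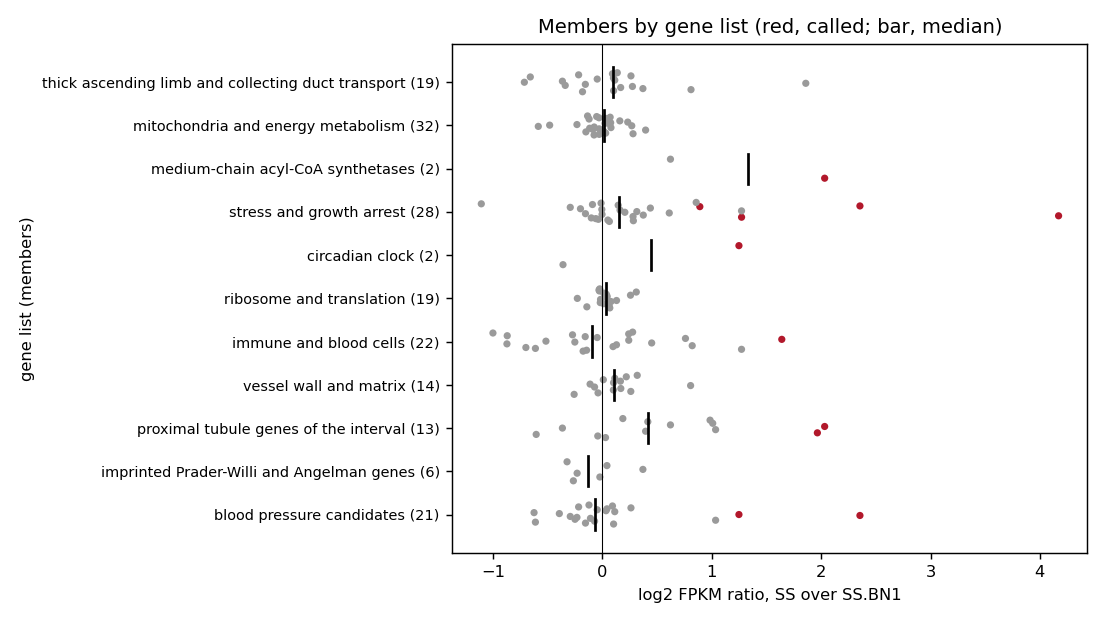
Each point is a member, placed by its log2 ratio of FPKM in SS over SS.BN1 and by its gene list, with the number of members in brackets, called members in red and a bar at the list's median. The mitochondrial and ribosomal lists stay close to 0. The stress list holds 4 of the called members (14.3% of its 28 tested, beside 3.91% of tested rows with 1 name). The lists were drawn up with earlier results of these data known, and a gene can stand in more than 1 list.

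A few uncalled members also differed by 2-fold or more, and they were named after their values were seen. Lmo1, a LIM-only transcriptional cofactor, was at 0.668 FPKM in SS.BN1 and 1.63 in SS and Aspdh at 0.721 and 1.55. Anks4b, a partner of harmonin in microvilli, was at 0.814 and 1.64 FPKM. All had a level under 2 FPKM in SS.BN1. Tmem159 (lipid droplet assembly factor 1) fell just short of 2-fold, at 4.58 and 9.01 FPKM (q = 0.0768 in the authors' deposited table).

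On the lower side, Prkcb, a protein kinase C isoform of leukocytes and other cells, was at 1.75 FPKM in SS.BN1 and 0.810 in SS (log2 ratio -1.11, q = 0.530 in the authors' deposited table). Itgax was the other member 2-fold lower. At 1.5-fold the counts were 31 higher and 14 lower, and the 14 included the leukocyte genes Spn, Folr2, Il16 and Fes. The 31 included Il4r, Isg20, Lrrc32 and Il21r of the same immune and blood cell list, which had 10 members higher in SS and 12 lower.

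Ratios spread more at low levels. The median absolute log2 ratio was 0.282 for the 52 members of 1 to 2 FPKM, 0.197 for 65 members of 2 to 5, 0.133 for 155 of 5 to 20, 0.0769 for 146 of 20 to 100 and 0.0703 for 25 members of 100 FPKM or more. Over all rows with 1 name the same values were 0.256, 0.168, 0.104, 0.0752 and 0.0777. No member of 100 FPKM or more differed by 2-fold, and Ppp1r15a, at a mean of 86.5, was the most abundant that did.

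Members were spread unevenly along the interval. The window from 190 to 200 Mb held 100 members, that from 100 to 110 Mb held 79 and that from 160 to 170 Mb held 71, while 110 to 120 Mb and 130 to 140 Mb held 6 each. The widest stretches without a member's start ran for 6.82 Mb from Svip to Tubgcp5 and for 6.48 Mb from Ube3a to Mkrn3. Of 947 named rows, 504 were under 1 FPKM and 318 of these were at 0 in both strains. Olfactory receptor genes made up 192 of the named rows, 112 of them in the window from 160 to 170 Mb and 63 in the next. No olfactory receptor row reached 1 FPKM, and 179 were at 0 in both strains.

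The window medians stayed within 0.08 of 0 on the log2 scale. The highest was 0.07, from 170 to 180 Mb, where 31 members were higher in SS and 14 lower, and where 4 of 44 tested members were called (Trim66, Wee1, Adm and Arntl). That is 9.09%, beside 3.91% of tested rows with 1 name, on 4 calls, and no test was made of the window. The lowest was -0.07, from 190 to 200 Mb, with 36 members higher and 64 lower, 2 of them called. Windows from 110 to 170 Mb outside 140 to 150 Mb had no call. Spearman's rho between position and log2 ratio over the 443 members was -0.05, given as a description of neighbouring genes that share libraries.

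The most abundant member of each of the 10 windows lay within 1.2-fold. Besides Umod and those named above, Pcsk6, a proprotein convertase, was at 86.6 FPKM in SS.BN1 and 84.2 in SS in the window from 120 to 130 Mb. Nr2f2 (COUP-TFII), a nuclear receptor, was at 151 and 141 FPKM in the window from 130 to 140 Mb. Rps3, a ribosomal protein, was at 289 and 316 FPKM in the window from 160 to 170 Mb. Among members of at least 5 FPKM in 1 strain, the largest ratios toward SS.BN1 in a window were small to moderate. LOC691427, in its row at 183763482, was at 8.82 and 4.81 FPKM, Sgf29, a chromatin reader, at 10.6 and 7.83, and Zfp710 at 46.0 and 36.2.

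**Figure D4:**
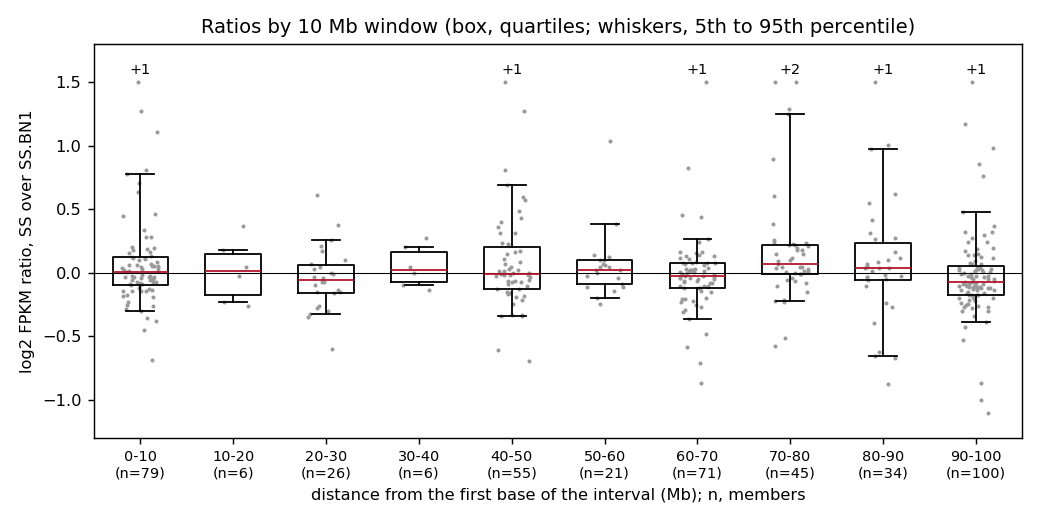
Log2 ratios of FPKM in SS over SS.BN1 are drawn for members (points) in windows of 10 Mb along the interval, with boxes at the quartiles, red lines at the medians and whiskers at the 5th and 95th percentiles. Members above 1.5 are drawn at the upper edge and counted there as +1 or +2; medians lie between -0.07 and 0.07.

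Members were ordered by deposited start and end, and by name within a shared interval, where the order is therefore not position. Counted among members in this order, none of the 24 next neighbours of called members was itself called. The share called was 2.85% of all tested members, so a count of 0 says little. Of the 24, 4 (16.7%) were at least 1.5-fold apart, against 45 of all 443 members (10.2%), and their median absolute log2 ratio was 0.139, beside 0.122 for all members. The closest pair of called members lay 0.563 Mb apart. Csrp3 had Zdhhc13, a palmitoyltransferase, on one side (18.2 FPKM in SS.BN1 and 25.1 in SS) and Nav2 on the other (11.2 and 14.1). Wee1 and Adm were separated by Swap70 (12 and 18.2 FPKM) and Sbf2 (19.4 and 19.6). Between Adm and its next member, rnf141, lies the joined row with Ampd3, which is no member and was called (q = 0.00705 in the authors' deposited table). Acsm1 lay between Umod and Acsm3.

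In the same order, which goes by name within a shared interval, neighbouring members had the same sign in 243 of 442 pairs (55.0%). Spearman's rho between neighbours was 0.14. The longest run of 1 sign was 9 members, Gtf3c1 to Tufm, all lower in SS with a median log2 ratio of -0.09. Next came 8 members from Arrb1 to Pgm2l1, lower (median -0.11), and 7 from Tmem41b to Adm, higher (median 0.20), which hold Wee1 and Adm. Another run of 7, from Spn to Zfp771, was lower (median -0.18). The run with the largest median among the 12 longest was Rexo5 to Crym, 6 members higher in SS (median 0.48), none called, which lies shortly after Acsm1 and Acsm3 and holds Tmem159 and Anks4b.

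**Figure D5:**
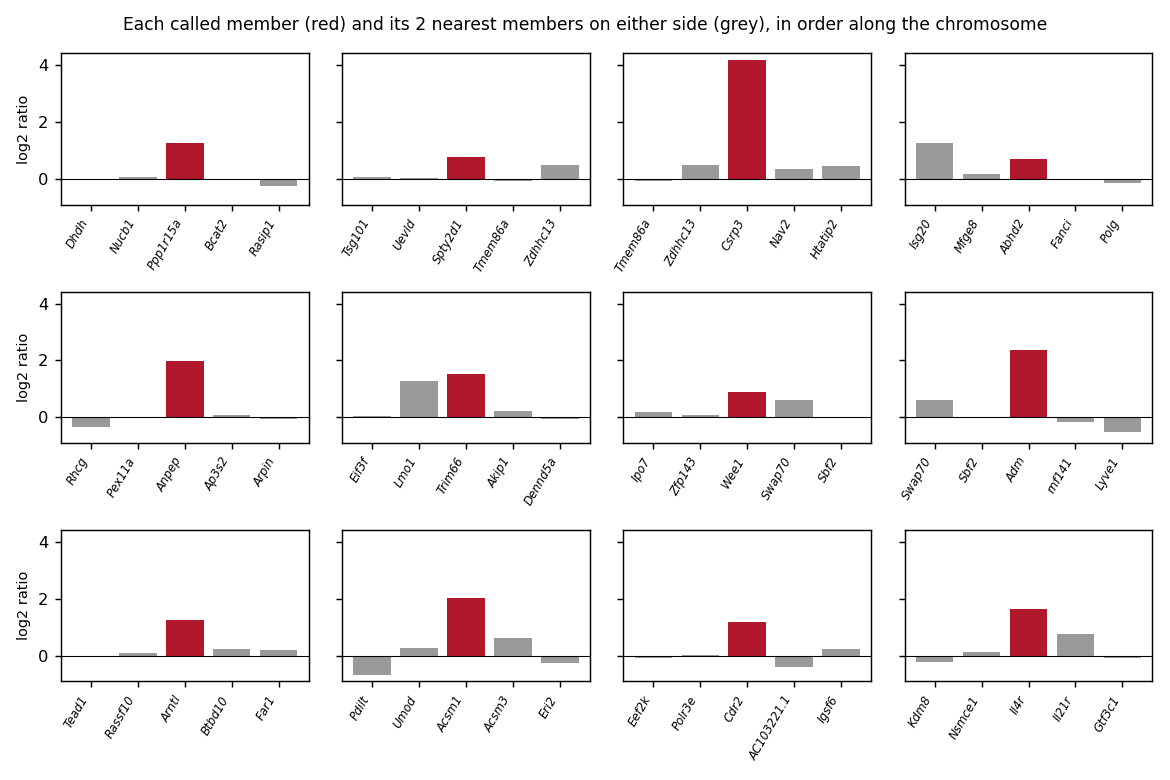
Each panel shows the log2 ratio of FPKM in SS over SS.BN1 for a called member (red) and its 2 next members on either side (grey). Members are ordered by deposited start and end, and by name within a shared interval. The called member has the tallest bar in 11 of the 12 panels; beside Abhd2, Isg20 is taller at 1.27 and is not called.

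Compared with its flanks, the middle stretch had the lowest share of calls of the 3 stretches of chromosome 1. From 0 to 100 Mb, 24 of 411 tested members were called (5.84%), beyond 200 Mb 20 of 471 (4.25%), and on the other autosomes 338 of 8572 (3.94%), by the same rule, against 2.85% here; the difference between these shares was not tested. Median log2 ratios were 0.01, 0.02 and 0.01 in those sets and -0.01 here. The median absolute log2 ratio was 0.122 in the middle stretch, 0.113 from 0 to 100 Mb, 0.120 beyond 200 Mb and 0.110 on the other autosomes. The median size of a difference on the exchanged chromosome was thus close to that on the other autosomes, though above it in each stretch. Larger differences lay further apart. The 90th percentile of the absolute log2 ratio was 0.585 in the middle stretch, 0.601 from 0 to 100 Mb and 0.626 beyond 200 Mb. On the other autosomes it was 0.514, and none of these differences was tested. Members were higher in SS in 47.6% of cases here, 52.0% from 0 to 100 Mb, 55.5% beyond 200 Mb and 51.3% elsewhere.

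A family picked out after its values were seen was that of zinc finger genes named Zfp or Znf. Of 11 members, 10 were lower in SS, none was called, and the median log2 ratio was -0.18. On other chromosomes 114 of 154 such genes were lower, with a median of -0.09, so the lean toward SS.BN1 was there too. Ribosomal protein genes leaned the other way by less, with 5 of 6 members higher and a median of 0.05, beside 0.04 on other chromosomes.

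Isoform rows gave fewer calls than gene rows. The authors tested 838 isoforms of members and called 5 in their deposited isoform table, all higher in SS. That is 0.597% of those tested, beside 1.05% of all 23688 tested isoform rows in the authors' deposited isoform table. Each was in a called gene: Ppp1r15a, Adm, Cdr2, Csrp3 and Trim66. In the authors' deposited isoform table, the main isoform of Ppp1r15a went with the gene, at 38.7 FPKM in SS.BN1 and 106 in SS (q = 0.00718). Anpep had 2 isoforms at 4.52 and 1.96 FPKM in SS.BN1 and 18.5 and 6.78 in SS, so both were higher, and neither was called (q = 0.0968 for the first in the authors' deposited isoform table).

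Of 326 members with a mean of at least 5 FPKM, 6 had an isoform whose share of the gene moved by 20 points or more: Csrp3, Il4r, Selenos, Tmem159, Tgfb1i1 and Zfp688. Selenos, a selenoprotein of endoplasmic reticulum protein disposal, had the same level in both strains as a gene, 47.8 FPKM in SS.BN1 and 47.7 in SS. Its first isoform held 38.6% of that in SS.BN1 and 82.2% in SS, at 18.5 and 39.2 FPKM, and its second 61.4% and 17.8%. The authors' deposited isoform table gave the first q = 0.999 and p = 0.126 for its level between the strains. The exchange of shares itself was not tested. In Il4r an assembled isoform held 22% in SS.BN1 and 50.8% in SS.

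Among the 28 rows of the interval that join several names, and so lie outside the rule, the authors' deposited table called 2. Not all 28 were tested, and 3.42% of all tested rows were called. A row joining Ampd3, an AMP deaminase, with a contig name lies just beyond Adm and stood at 43.6 FPKM in SS.BN1 and 74.5 in SS (q = 0.00705 in the authors' deposited table). A row with Gvin1, an interferon-inducible GTPase gene, was at 2.26 and 0.779 FPKM, lower in SS (q = 0.00266 in the authors' deposited table).

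At the minimum mean of 1 FPKM, the members just inside were Zfp473 (1.04 FPKM in SS.BN1 and 1.02 in SS) and Pgm2l1 (1.26 and 0.899). Just outside were Blm (0.997 and 0.969) and Hpx (1.13 and 0.730). Along the chromosome the first member was Syt3, at 100379186, and the last was Bag3, at 199941161.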

How the data were processed

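Stranded total-RNA libraries of 12 animals were sequenced in pairs on an Illumina HiSeq, per the labels' protocols. Named in the submitters' processing notes, without their roles, are TopHat2 2.1.1, Cufflinks 2.2.1, StringTie, cutadapt, FastQC and the build rn5. The authors deposited 1 FPKM per strain for each gene and isoform row, with a test status; no source used here says how a strain's 6 libraries were combined. The p-values and q-values are those of the authors' deposited tables. The authors' table of libraries gives, per the file headers, read counts, the percent of reads mapped, the percent of bases at Q30 and a mean quality score.

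From these, log2 ratios of SS over SS.BN1 were computed with no pseudocount, after a minimum mean of 1 FPKM. Rows were called by a deposited q under 0.05. Rows joining several names, without a name, or named AABR07 or RF0 were not members. The build is not settled: AABR07 contig names belong to a later assembly than rn5, so positions are as deposited with 1 added to each start. RefSeq names (GRCr8) were used for matching only, and 1 member's name had turned into a date. Strain means of the library measures were set against each other by exact permutation over 924 assignments, two-sided (smallest p 0.00216), adjusted by Benjamini-Hochberg over 4 measures. The percent of reads mapped was 85.85 ± 0.339 in SS and 85.3 ± 0.522 in SS.BN1 (SD, n = 6 each; exact permutation p = 0.0584, adjusted 0.156).

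The members and gene lists were chosen with earlier results of these data known. Named genes were the called members, the most abundant member and the largest ratios of each 10 Mb window, up to 4 abundant members and 2 large ratios per list, and the members at the edges and in the longest runs; others were named after their values were seen. A few genes that this choice takes in are not reported here. Alternatives were a pseudocount of 1, a mean of at least 5 FPKM, centring, summed isoforms, q under 0.01, a fold of 1.5, rows of any name and moved windows. Tools were SciPy 1.17.1, pandas 2.3.3, NumPy 2.4.6 and matplotlib 3.10.9 in Python 3.11.15.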

Additional observations from a re-analysis of the deposited data

Results flagged for a closer look

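SS replicate 5 stood below the other SS libraries in both quality measures. Its percent of bases at Q30 was 89.2866, with a gap to the next library of 0.654 of the group's range, and its mean quality score was 33.9468, with a gap of 0.673. Both gaps exceed Dixon's 95% critical value for 6 libraries, which chance alone passes in about 1 of 20 groups. SS replicate 5 was not the lowest of the series. In SS.BN1, replicate 3 had 88.9582% of bases at Q30 and a mean quality of 33.8566, and replicate 6 had 88.7615% and 33.8429. Both measures come from the same reads, and no expression value per library was used here, so the part of SS replicate 5 in any FPKM was not tested.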

How the results depend on the processing

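Members' median log2 ratio lay between -0.0171 and -0.00519 under the 6 alternatives run. The 12 calls became 8 at q under 0.01, 9 at a mean of at least 5 FPKM, 16 with rows of any name and 5 genes by isoform rows. Alternatives chosen after seeing the data gave 10 calls without proximal tubule genes and 7 among members that share their interval with no other row. Of members at least 2-fold higher and lower in SS (15 and 2), a pseudocount of 1 left 8 and 0, a mean of at least 5 FPKM left 6 and 0, and a fold of 1.5 gave 31 and 14. The thin window from 130 to 140 Mb went from a median of 0.02 to 0.20 at a mean of at least 5 FPKM. Windows moved by 5 Mb had medians from -0.09 to 0.05 where they held 20 members or more. The thin moved window from 115 Mb, with 6 members, had a median of 0.11. With a pseudocount of 1, the log2 ratio of Csrp3 was 3.70 and that of Trim66 was 1.05. No paired analysis was possible because the expression tables hold 1 value per strain, and leaving out a library could not be run for the same reason. The authors' calls at low FPKM cannot be checked against the spread between animals.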
